A study of Mus musculus with 12 samples.

Results

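The epithelial genes considered here are 9 genes that mark mammary and skin epithelium, which can lie within or beside the inguinal fat pad. They were chosen by symbol, with earlier results of these data known: *Epcam*, *Krt8*, *Krt18*, *Krt14*, *Krt5*, *Cdh1*, *Cldn7*, *Elf5* and *Lalba*. Of the 9 genes, 2 are listed among the 14159 genes of the values analysed here, namely *Cdh1* (NM_009864) and *Lalba* (NM_010679). The other 7 were not listed under their symbol or their RefSeq identifier, so they have no value here. None of the listed genes lacked reads in any library (minimum 1 read), and no upper limit can be set for a gene that is not listed. Why these 7 genes were not listed was not tested.

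Inguinal white adipose tissue (iWAT) came from mice of both genotypes, Atf4WT and Atf4AKO, kept at room temperature (RT) or exposed to cold for 24 h. Atf4AKO mice carry floxed *Atf4* alleles and the *Adipoq*-Cre transgene, which is active in adipocytes and is not directed at epithelial cells. The Atf4WT mice were littermates that carry the floxed alleles without Cre, and both genotypes are on a C57BL/6 background. Polyadenylated RNA of whole tissue was sequenced in 12 libraries, 3 for each of the 4 groups, and the age and sex of these mice are not given in the labels. All 12 libraries held Y-linked transcripts, with *Ddx3y* at 1979 to 3614 normalized counts, and *Xist* was not listed. By these genes the tissue was male. *Atf4*, the deleted gene (chromosome 15, 80255184 to 80257541), averaged 4815 ± 791 normalized counts in Atf4WT at RT and 6970 ± 1054 after cold. In Atf4AKO iWAT it averaged 1568 ± 87.9 at RT and 1182 ± 395 after cold (SD, n = 3), and the genotypes did not overlap at either temperature. Between 25719476 and 29105147 reads per library fell on listed genes, and all 8 white adipocyte markers examined were listed. Transcripts of skeletal muscle stood out in 3 libraries (Atf4WT RT replicate 2, Atf4WT cold replicate 0 and Atf4AKO cold replicate 1), set apart by 2 genes together. The actin gene *Acta1* was at 35541, 13734 and 1314 normalized counts there, and the muscle gene *Tnni2* at 5756, 1794 and 205. In the other libraries *Acta1* reached 789 (Atf4WT RT replicate 1) and *Tnni2* 35.8 (Atf4WT cold replicate 2).

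The mammary gland of the female mouse grows as a tree of epithelial ducts inside the subcutaneous fat pads. Its ducts have an inner luminal layer, marked by *Krt8*, *Krt18*, *Epcam* and *Elf5*, and an outer basal layer, marked by *Krt5* and *Krt14*, which the basal layer of the epidermis also expresses. E-cadherin (*Cdh1*) joins epithelial cells to each other, and claudin 7 (*Cldn7*) belongs to their tight junctions. Alpha-lactalbumin (*Lalba*) is a milk protein, the regulatory subunit of lactose synthase, and it is classically made by the secretory cells of the lactating gland.

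*Lalba* was the listed gene whose groups stood apart by temperature in both genotypes, and the sequence before its start is therefore shown. The gene lies on the minus strand of chromosome 15 (mm10) from 98480400 to 98482721, with a single annotated transcript of 771 bp of exon. The 213 bases printed are chr15:98482721-98482933, minus strand, from RefSeq on GRCm38.p6, 5′ to 3′. The capitals mark an AT-rich run, ATAAAA, that starts at position -43 from the RefSeq start. The GENCODE start lies 38 bases upstream of the RefSeq start, at the last base of this run, where the printed sequence ends. ATAAAA is found on either strand in 17% of the 32851 promoter windows of 250 bases.
Lalba: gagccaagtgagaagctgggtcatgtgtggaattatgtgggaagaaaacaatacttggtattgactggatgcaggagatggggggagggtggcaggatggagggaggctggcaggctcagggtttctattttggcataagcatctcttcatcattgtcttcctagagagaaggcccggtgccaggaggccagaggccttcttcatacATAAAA
The whole window of 250 bases before the RefSeq start was searched on both strands for TTCNNNGAA (a STAT element), TGATGNAA (an element of ATF4 with C/EBP), TGACGTCA (the cAMP response element), TATAAA and AGGTCA (a nuclear receptor element). None of these letters occurred in the 250 bases before the *Lalba* start. They occur in 7.02%, 3.45%, 1.55%, 12.4% and 14% of all windows, respectively.

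*Lalba* was more abundant after cold in both genotypes, at very low counts. In Atf4WT iWAT its normalized counts were 1.84, 2.89 and 1.85 at RT and 8.22, 9.50 and 4.71 after cold. In Atf4AKO iWAT they were 4.65, 0.996 and 3.71 at RT and 12.8, 7.94 and 16.1 after cold. All 6 cold libraries lay above all 6 RT libraries, and the 3 libraries with muscle transcripts followed this order as well. The values rest on 73 reads in all, between 1 and 15 in each library. The 3 Atf4WT libraries at RT held 7 reads together (exact 95% Poisson interval 2.81 to 14.4) and the 3 after cold 22 reads (13.8 to 33.3). The corresponding sums in Atf4AKO iWAT were 10 reads (4.80 to 18.4) and 34 reads (23.5 to 47.5), and these intervals cover counting error only.

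The group means of *Lalba* were 2.19 ± 0.601 in Atf4WT at RT, 3.12 ± 1.90 in Atf4AKO at RT, 7.48 ± 2.48 in Atf4WT after cold and 12.3 ± 4.11 in Atf4AKO after cold (SD, n = 3). In this order the 2 RT groups overlapped, as did the 2 cold groups, whereas the highest RT library of Atf4AKO (4.65) lay just below the lowest cold library of Atf4WT (4.71). Both of these libraries held the same number of *Lalba* reads, so their order rests on the normalization. The overall mean of 6.26 lay under the filter of 10 normalized counts for the test across genes, and the following tests of *Lalba* were therefore made on all 14159 listed genes. Without the filter, limma gave a log2 fold change of 1.38 in Atf4WT (standard error 0.46, adjusted p = 0.0427). In Atf4AKO iWAT it gave 1.77 (standard error 0.46, adjusted p = 0.0182). All fold changes from limma are on the scale of log2(normalized count + 1), which understates changes of low genes. The threshold of the study was used for calls, a fold change over 1.5 with an unadjusted p under 0.05. Of all listed genes, 10.9% passed it with higher values after cold in Atf4WT and 8.21% in Atf4AKO iWAT. Among the 755 genes under the filter the shares were 10.3% and 6.09%.

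The count model of edgeR on the recovered whole reads gave *Lalba* log2 fold changes of 1.69 in Atf4WT (adjusted p = 0.0357) and 1.89 in Atf4AKO (adjusted p = 0.0180). DESeq2 gave 1.77 and 1.97, with unadjusted p-values of 0.0423 and 0.0138, and left the adjusted p-values of *Lalba* undefined. The exact two-sided permutation test gave p = 0.1 in each genotype, which is the smallest that 3 libraries against 3 allow. With temperature permuted within each genotype, the exact p-value over both was 0.005, the smallest of the 400 arrangements. Averaged over the genotypes, the log2 fold change was 1.57 (limma without the filter, standard error 0.33, adjusted p = 0.00270), against 9.23% of listed genes called higher and 10.1% of those under the filter. Cold libraries lay above RT libraries without overlap in both genotypes for 15.1% of all listed genes and for 20 of the 755 genes under the filter (2.65%).

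**Figure D1:**
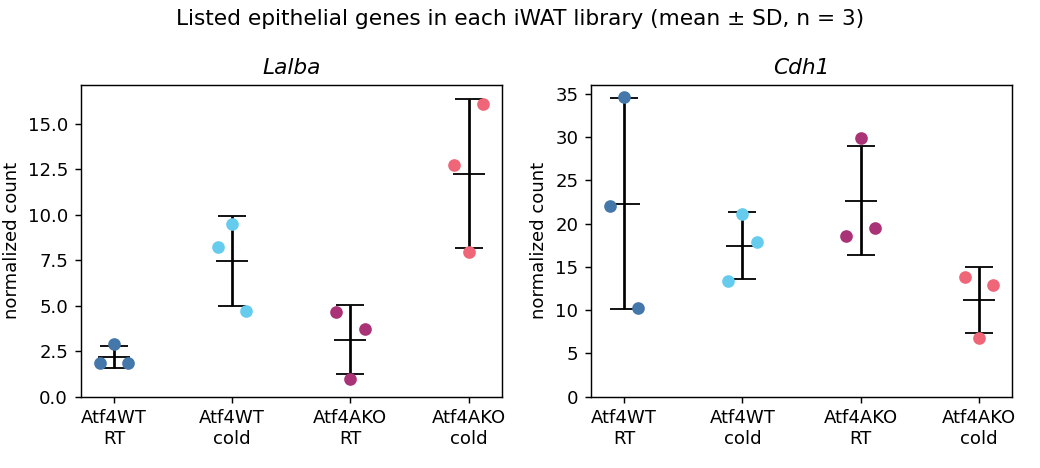
Normalized counts of *Lalba* (left) and *Cdh1* (right) in each iWAT library, as points, for Atf4WT and Atf4AKO mice at RT and after cold, with the mean and SD of 3 libraries as a line with caps. For *Lalba* the 6 cold libraries lie between 4.71 and 16.1 and the 6 RT libraries between 0.996 and 4.65, whereas for *Cdh1* the Atf4WT groups overlap.

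The genotypes were then compared for *Lalba*. After cold the log2 difference of Atf4AKO from Atf4WT was 0.64, with a 95% interval of -0.37 to 1.66 (limma without the filter, adjusted p = 0.642). At RT it was 0.25, with an interval of -0.76 to 1.27 (adjusted p = 1.000). The difference between the cold responses was 0.39, with an interval of -1.04 to 1.83 (adjusted p = 0.998). These intervals include 0 and also differences of more than 2-fold.

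Markers of lymphocytes were higher after cold in Atf4WT iWAT but not in Atf4AKO iWAT. A lymphocyte score, which averages the log2 values of B and T cell markers per library, was 6.95 to 9.46 in Atf4WT after cold and 3.79 to 6.84 in Atf4WT at RT. In Atf4AKO iWAT it was 3.38 to 4.92 after cold and 4.01 to 5.06 at RT. Adjusted for this score, the log2 fold change of *Lalba* was 1.28 in Atf4WT (unadjusted p = 0.133, limma) and 1.79 in Atf4AKO (unadjusted p = 0.00421). The standard error of the Atf4WT value rose from 0.46 to 0.79, and this value lost its call. Each cold Atf4WT library had a higher score than any other library, so this fit separates cold in Atf4WT from the score poorly.

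No listed gene overlaps *Lalba* in the annotation. The nearest listed gene is *Kansl2*, on the same strand and 34937 bp away, which encodes a subunit of a histone acetyltransferase complex. *Kansl2* rose from 1118 ± 140 to 1763 ± 28.0 normalized counts in Atf4WT and from 1089 ± 54.3 to 1936 ± 77.1 in Atf4AKO iWAT (SD, n = 3). The change was 0.66 on the log2 scale in Atf4WT (adjusted p = 0.000561) and 0.83 in Atf4AKO (adjusted p = 0.000184, limma). *Ccnt1*, the cyclin T1 gene 55968 bp away, had log2 fold changes of 0.21 and 0.22 and did not pass the threshold. *OR5BS1P*, 1418 bp away on the opposite strand, was not listed.

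*Cdh1* was detected in every library and did not pass the threshold in any comparison of the limma fit, although some alternatives called it in Atf4AKO iWAT. It lies on the plus strand of chromosome 8 (mm10) from 106603351 to 106670246. In Atf4WT iWAT its normalized counts were 22.1, 34.6 and 10.2 at RT and 13.4, 21.1 and 17.9 after cold. In Atf4AKO iWAT they were 18.6, 29.9 and 19.5 at RT and 13.8, 6.80 and 12.9 after cold. The Atf4WT groups overlapped, while each cold Atf4AKO library lay below each Atf4AKO library at RT. Per library, between 6 and 36 reads fell on *Cdh1*, 225 in all. The group sums were 71 reads in each RT group (exact 95% Poisson interval 55.5 to 89.6), 52 in Atf4WT after cold (38.8 to 68.2) and 31 in Atf4AKO after cold (21.1 to 44.0).

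The group means of *Cdh1*, from the highest, were 22.6 ± 6.27 in Atf4AKO at RT, 22.3 ± 12.2 in Atf4WT at RT, 17.5 ± 3.90 in Atf4WT after cold and 11.2 ± 3.81 in Atf4AKO after cold (SD, n = 3). Neighbours in this order overlapped. In Atf4WT iWAT the log2 fold change with cold was -0.21, with a 95% interval of -1.19 to 0.78 (limma, adjusted p = 0.755). In Atf4AKO iWAT it was -0.98, with an interval of -1.97 to 0.00 (unadjusted p = 0.0508, adjusted p = 0.129). The exact permutation p-value there was 0.1, the smallest possible. The background in these comparisons was 21.2% of the 13404 tested genes past the threshold in Atf4WT and 17.2% in Atf4AKO iWAT, and 19.9% of tested genes lay lower after cold without overlap in Atf4AKO. edgeR placed *Cdh1* past the threshold in Atf4AKO iWAT (log2 fold change -1.04, unadjusted p = 0.0427, adjusted p = 0.116), whereas DESeq2 did not (-1.01, unadjusted p = 0.0728).

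Between the genotypes, *Cdh1* differed by -0.63 after cold on the log2 scale (95% interval -1.62 to 0.35, adjusted p = 0.631, limma). The value at RT was 0.14 (-0.84 to 1.13, adjusted p = 1.000). The cold responses differed by -0.78 (-2.17 to 0.62, adjusted p = 0.993). Without the libraries with muscle transcripts, the cold response of *Cdh1* was -0.49 in Atf4WT and -0.69 in Atf4AKO iWAT. The closest listed gene, *Tango6*, 12822 bp away, did not pass the threshold with cold (log2 fold changes -0.04 and 0.22). *Cdh3*, the P-cadherin gene next to it, was not listed.

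Both genes were among the least abundant that were listed. The mean of *Cdh1*, 18.4 normalized counts, lay above 9.23% of listed genes, and the mean of *Lalba*, 6.26, lay above 2.87%. Per kb of exon the levels were 4.02 ± 1.74 normalized counts for *Cdh1* and 8.12 ± 6.13 for *Lalba* (SD over the 12 libraries), with ranges of 1.49 to 7.57 and 1.29 to 20.9. In bulk tissue, fewer epithelial cells and less RNA per cell cannot be told apart. Over the 12 libraries the log2 values of *Cdh1* and *Lalba* had a Pearson correlation of -0.48, and within the groups of 0.09, and these libraries share their groups.

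The genes whose log2 values followed each gene most closely over the 12 libraries are given as a description. For *Cdh1* they were *Zfp607a* (r = 0.868), *Actb* (0.833), *Prss12* (0.823), *Tmub1* (0.817), *2210016L21Rik* (0.817), *Cfl1* (0.805), *Gja4* (0.802), *Bcl10* (0.801), *Dbp* (0.801) and *Spry2* (0.799). None of these 10 genes is in an epithelial list used here. For *Lalba*, by a rule added after its values were seen (tested genes with a mean of at least 50), they were *Slc7a6* (0.922), *Abraxas1* (0.921), *Ist1* (0.914), *Selenoi* (0.913) and *Dazap1* (0.913). Within the groups the correlations were 0.654 to 0.830 for the first set and 0.581 to 0.697 for the second.

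To place the 2 genes among other epithelial genes, 6 lists were examined with the 9 genes left out. These lists, too, were chosen with earlier results of these data known. Together the lists name 98 genes, of which 43 were listed and 36 were tested. Of 14 luminal mammary genes 8 were listed, including *Kit*, a receptor of luminal progenitors, and the keratins *Krt19* and *Krt7*. Of 11 basal genes 8 were listed, including *Trp63*, the transcription factor of basal cells, and *Oxtr*, the oxytocin receptor. The basal keratins *Krt5*, *Krt14*, *Krt15* and *Krt17* were not listed. Whether the transcripts of the listed genes came from epithelial cells was not tested. Of 10 milk genes the single one listed was *Muc1*, a mucin of secretory membranes, and no casein gene was listed, nor *Wap*. The listed shares were 13 of 25 for junction and identity genes, 10 of 26 for suprabasal skin genes and 3 of 12 for hair follicle and sebaceous genes. *Krt1*, *Flg* and *Ivl*, which mark the differentiating epidermis, were not listed, whereas *Krt10* was.

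**Figure D2:**
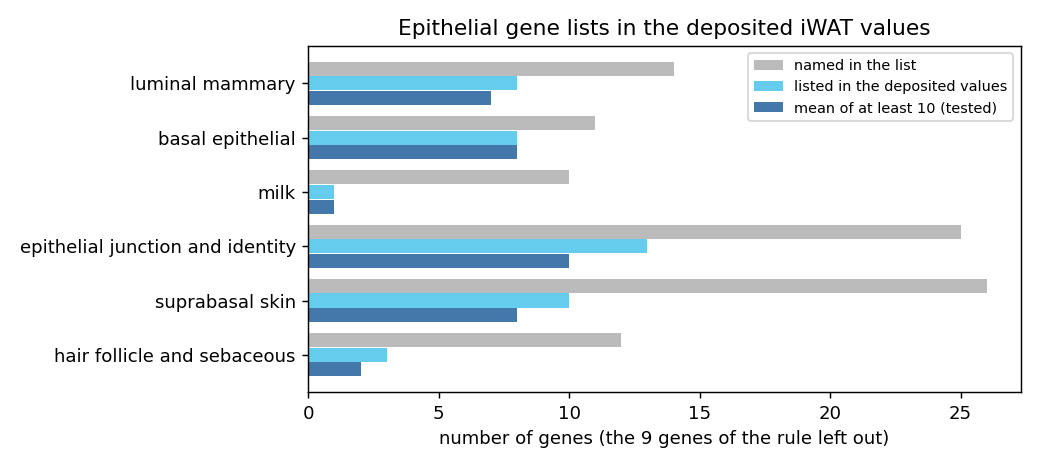
Number of genes (horizontal axis) in each of 6 epithelial lists that were named, that were listed in the values, and that were tested because their mean reached 10 normalized counts. Milk genes had the fewest listed, 1 of 10, and suprabasal skin genes had 10 of 26.

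The levels within the lists were uneven. In the luminal list the highest means over the 12 libraries were 468 normalized counts for *Aldh1a3*, a retinaldehyde dehydrogenase of luminal progenitors, 372 for *Kit* and 204 for *Spint2*, an inhibitor of serine proteases. In the basal list they were 393 for *Oxtr*, 358 for *Trp63* and 254 for *Itgb4*, the integrin of hemidesmosomes. In the junction list they were 263 for *Ppl* (periplakin), 258 for *Grhl1*, a transcription factor of epidermis, and 62.1 for *Pkp3*, a desmosomal plakophilin. *Sbsn*, which encodes suprabasin, had 1103, *Krt79* 285 and *Krt10* 139. Among hair follicle and sebaceous genes they were 351 for *Mc5r*, 58.4 for *Scd3* and 6.84 for *Tchh*, and *Muc1* had 22.5.

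With cold, 10 of the 36 tested list genes passed the threshold in Atf4WT iWAT, 7 higher and 3 lower, against 21.2% of all tested genes. An adjusted p under 0.05 was reached by 4 of them, against 31.9% of all tested genes. In Atf4AKO iWAT 5 of 36 passed, 1 higher and 4 lower, against 17.2%, and 1 had an adjusted p under 0.05, against 25.9%. The median log2 fold change of the 36 genes was -0.29 in Atf4WT and -0.25 in Atf4AKO iWAT, beside 0.00 and -0.03 over all tested genes. Without the libraries with muscle transcripts the counts were 9 and 6, and the medians were -0.34 and 0.04. The Atf4AKO median thus turned sign. The shares of all tested genes past the threshold in that fit were not counted.

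By list, 1 of 7 luminal genes was higher and none lower in Atf4WT, and 2 were lower in Atf4AKO iWAT (medians -0.59 and -0.23). Of 8 basal genes, 1 was higher and 2 lower in Atf4WT, and 2 were lower in Atf4AKO (medians -0.29 and -0.46). Of 10 junction genes, 3 were higher in Atf4WT and none passed in Atf4AKO (medians -0.11 and -0.21). Of 8 suprabasal genes, 2 were higher in Atf4WT and 1 in Atf4AKO (medians -0.22 and -0.31). The 2 tested hair follicle and sebaceous genes did not pass in either genotype (medians -0.28 and 0.17).

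The 3 genes *Krt79*, *Lama3* and *Trp63* passed in the same direction in both genotypes, as did 11.7% of all tested genes. *Krt79*, a keratin of hair follicle and sebaceous ducts, had normalized counts of 244, 222 and 181 at RT and 403, 334 and 262 after cold in Atf4WT iWAT. In Atf4AKO iWAT it had 160, 246 and 169 at RT and 389, 482 and 332 after cold, without overlap in either genotype. The log2 fold change of *Krt79* was 0.61 in Atf4WT (adjusted p = 0.0531) and 1.07 in Atf4AKO (adjusted p = 0.00519, limma). *Lama3*, a chain of laminin 332 in the epithelial basement membrane, fell from 101 ± 25.8 to 38.9 ± 16.0 in Atf4WT (log2 fold change -1.39, adjusted p = 0.0131). In Atf4AKO it fell from 64.6 ± 20.1 to 32.4 ± 9.03 (-0.96, adjusted p = 0.0687). *Trp63* fell from 432 ± 63.4 to 247 ± 66.5 in Atf4WT (-0.83, adjusted p = 0.0801) and from 481 ± 183 to 272 ± 97.1 in Atf4AKO (-0.81, adjusted p = 0.0979). Without the libraries with muscle transcripts *Krt79* in Atf4WT was at 0.34 and lost its call (unadjusted p = 0.179, limma). Adjusted for the lymphocyte score, *Trp63* in Atf4WT was at 0.033 and *Lama3* at -1.11 (unadjusted p = 0.0927), and both lost their call there.

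*Muc1* was lower after cold in Atf4WT iWAT, at 34.3 ± 11.3 and 16.9 ± 5.55 normalized counts (log2 fold change -0.98, adjusted p = 0.0704), and its value in Atf4AKO was -0.33. In Atf4AKO iWAT *Spint1*, a protease inhibitor of epithelia, was lower at 28.9 ± 5.43 and 13.0 ± 2.97 (-1.10, adjusted p = 0.0593). *Aldh1a3* was lower at 555 ± 184 and 238 ± 147 (-1.42, adjusted p = 0.127). In Atf4WT their values were -0.70 and -1.19 and did not pass. Without Atf4AKO cold replicate 1, a library with muscle transcripts, *Aldh1a3* in Atf4AKO iWAT was at -0.76 and lost its call, as it did without 7 other single libraries. Among the abundant list genes that did not pass in either genotype, the log2 fold changes in Atf4WT and Atf4AKO were -0.03 and 0.07 for *Kit*, 0.36 and 0.38 for *Oxtr*, and -0.64 and -0.65 for *Sbsn*.

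**Figure D3:**
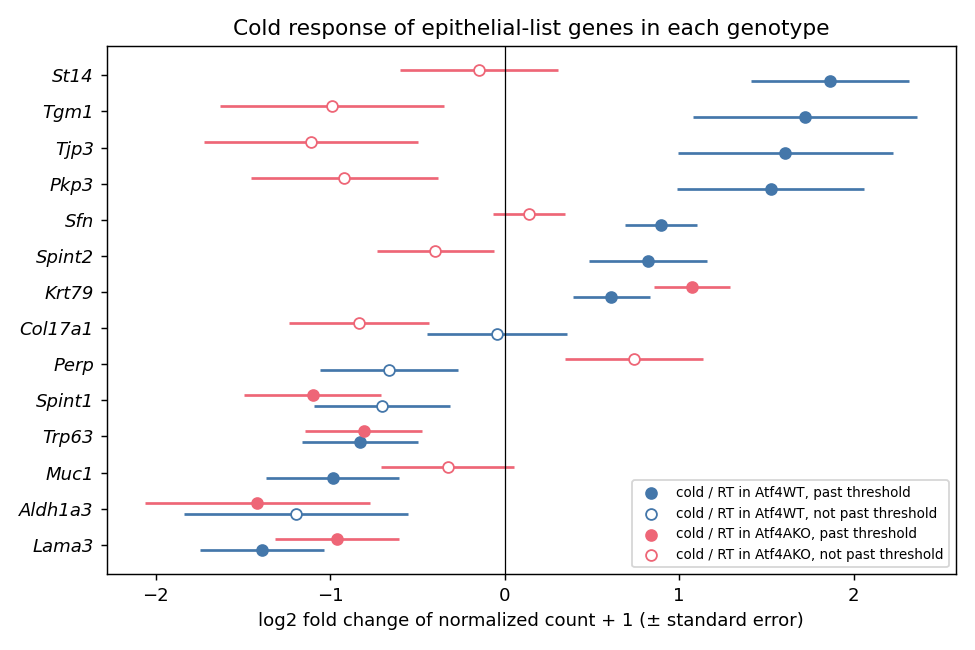
Log2 fold change of normalized count + 1 between cold and RT (horizontal axis, with standard errors) of the 14 epithelial-list genes past the threshold in either cold response or between the genotypes after cold. Blue marks Atf4WT and red Atf4AKO, and filled points passed the threshold. *St14*, *Tgm1*, *Tjp3* and *Pkp3* lie above 1.5 in Atf4WT and below 0 in Atf4AKO, whereas *Lama3*, *Trp63* and *Krt79* lie on the same side in both.

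Of the genes that rose with cold in Atf4WT iWAT, 6 were also lower in Atf4AKO than in Atf4WT after cold, and both comparisons use the cold Atf4WT libraries. Of all tested genes, 3.48% did the same. The 6 genes were *St14* (matriptase, a membrane serine protease), *Tgm1* (a transglutaminase of the cornified envelope), *Tjp3* (a tight junction scaffold), *Pkp3*, *Spint2* and *Sfn* (14-3-3 sigma). *St14* had normalized counts of 13.8, 12.5 and 23.2 at RT and 28.8, 74.9 and 102 after cold in Atf4WT. In Atf4AKO it had 20.5, 13.9 and 13.0 at RT and 11.7, 12.5 and 18.3 after cold. Every cold Atf4WT library was above all 9 others. The log2 fold change of *St14* with cold was 1.86 in Atf4WT (adjusted p = 0.0101), and -0.15 in Atf4AKO.

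*Tjp3* had 8.27, 13.5 and 24.1 normalized counts at RT and 29.8, 39.1 and 76.3 after cold in Atf4WT iWAT. In Atf4AKO it had 7.44, 7.97 and 14.8 at RT and 9.57, 1.13 and 4.30 after cold. The log2 fold changes of the others in Atf4WT were 1.72 for *Tgm1*, 1.61 for *Tjp3*, 1.52 for *Pkp3*, 0.90 for *Sfn* and 0.82 for *Spint2*, with adjusted p-values of 0.0608, 0.0671, 0.0495, 0.00811 and 0.0838 (limma). For *Tgm1*, *Pkp3* and *Spint2*, cold replicate 0 of Atf4WT, with 28.8, 45.2 and 154 normalized counts, lay within the range at RT.

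Between the genotypes after cold, 8 of 36 list genes passed the threshold, 1 higher and 7 lower in Atf4AKO, against 6.4% of all tested genes. With limma 0 of the 36 had an adjusted p under 0.05, against 0.0298% of all tested genes. At the unadjusted threshold edgeR called 9 and DESeq2 8. Without the libraries with muscle transcripts 10 passed, 1 higher and 9 lower, and 6 had an adjusted p under 0.05, against 3.62% of all tested genes in that fit. The share of all tested genes past the threshold in that fit was not counted, and the 6.4% belongs to the fit of all libraries. The median of the 36 genes was -0.11 with all libraries, beside 0.05 over all tested genes, and 0.24 without these libraries, beside 0.05. The libraries left out included the Atf4WT RT library with the highest lymphocyte score of its group (6.84). They also included the cold Atf4WT library with the lowest (6.95). Without them 13 of 14 B cell markers had an adjusted p under 0.05 between the genotypes after cold, against 0 with all libraries (limma). Whether muscle or lymphocyte content moved these counts was not tested. The log2 differences were -3.21 for *Tjp3*, -2.69 for *Tgm1*, -2.11 for *Pkp3*, -2.05 for *St14*, -1.20 for *Spint2*, -0.93 for *Col17a1* (a hemidesmosomal collagen) and -0.86 for *Sfn*, with adjusted p-values from 0.0648 to 0.390. *Perp*, a desmosomal membrane protein gene, was higher (1.36, adjusted p = 0.146). At RT 0 of the 36 passed with limma, against 0.463%, and 0 with edgeR and 1 with DESeq2. In the test of the difference between the cold responses, 7 of 36 passed, 1 higher and 6 lower, against 4.63%, and 0 had an adjusted p under 0.05 with limma, as was the case over all 13404 genes. Without the libraries with muscle transcripts 7 passed, with no share over all genes counted. In that fit 4 had an adjusted p under 0.05, against 2.01%.

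Lymphocyte markers moved with these genes. Of 16 B cell markers 14 were listed. All 14 passed the threshold as higher with cold in Atf4WT and as lower in Atf4AKO than in Atf4WT after cold. Of all tested genes, 3.48% did so. Their summed normalized counts were 4610 to 16260 in Atf4WT and 107 to 429 in Atf4AKO after cold, and 173 to 4777 in Atf4WT and 172 to 722 in Atf4AKO at RT. *Fcer2a* and *Ighd* were not listed. Of 20 T cell markers 18 were listed, 17 of them higher with cold in Atf4WT and 18 lower in Atf4AKO after cold. Their sums after cold were 1581 to 12160 in Atf4WT and 332 to 811 in Atf4AKO, and *Trac* and *Trbc2* were not listed. At RT they were 466 to 1298 and 592 to 1453. The 4 listed lymph node stroma markers of 8 moved the same way, all 4 past the threshold in both comparisons. Of these, *Cr2* is also among the 14 B cell markers. Past the threshold were 21.2% of all tested genes with cold in Atf4WT and 6.4% between the genotypes after cold. Between the genotypes after cold, 0 B cell, 0 T cell and 0 stroma markers had an adjusted p under 0.05 (limma, all libraries).

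After adjustment for the lymphocyte score, 2 of the 10 list genes called in Atf4WT stayed past the threshold, *Krt79* and *Muc1*, and 4 of the 5 called in Atf4AKO. None of the 8 genes called between the genotypes after cold did so, nor any of the 7 called for the difference of the responses. How many of all genes called in these comparisons kept their call in this fit was not counted. The score did not overlap between the cold groups (6.95 to 9.46 in Atf4WT, 3.38 to 4.92 in Atf4AKO). This fit therefore separates genotype after cold from the score poorly, and a lost call does not tell which genes follow the lymphocytes. For *Perp* the difference after cold was as large with the score, 1.40 (unadjusted p = 0.0929, limma), and that of the responses was 1.45. The value of *St14* with cold in Atf4WT was then 0.57, that of *Sfn* 0.47 and that of *Pkp3* -0.34. Which cells the transcripts came from was not tested.

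**Figure D4:**
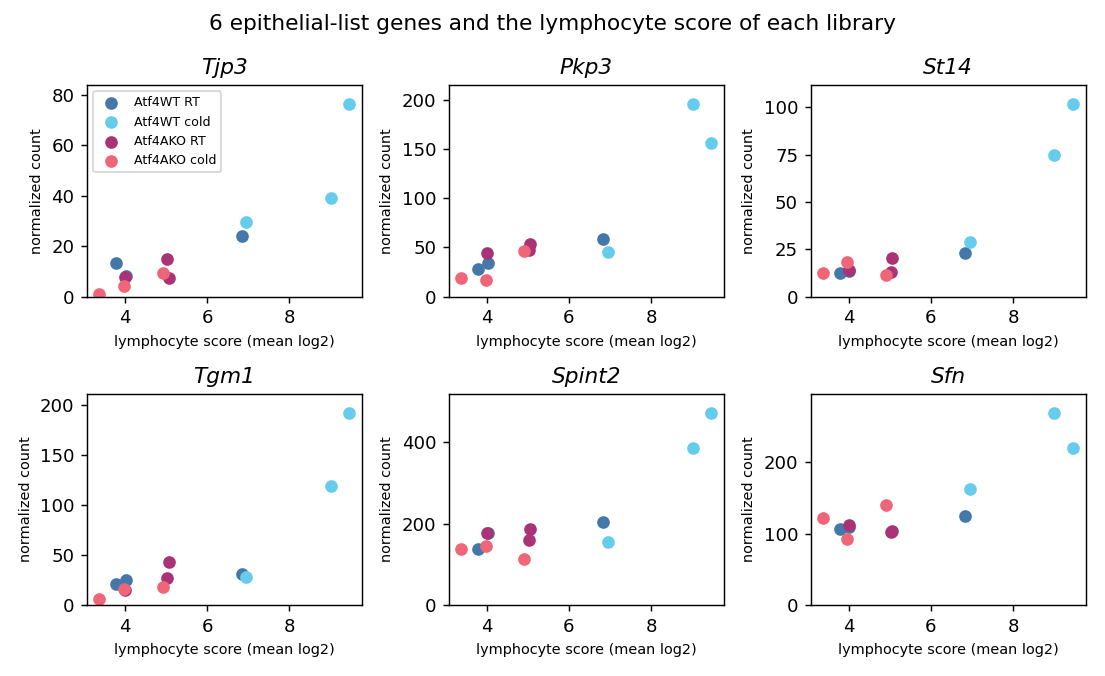
Normalized counts of *Tjp3*, *Pkp3*, *St14*, *Tgm1*, *Spint2* and *Sfn* (vertical axes) against the lymphocyte score of each of the 12 libraries (horizontal axes, in log2 units). The 2 cold Atf4WT libraries with the highest scores hold the highest counts of all 6 genes.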

How the data were processed

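The deposited values are a normalized signal, which the authors made by dividing each gene's reads by the DESeq2 size factor of its library. Per their methods, SOAPnuke filtered the reads, STAR mapped them (mm10) and featureCounts counted unique ones. Tool versions and the strand setting are not given in the sources used here. Division by each library's smallest value gave whole reads (largest deviation 0.000313), on which edgeR 4.0.16 and DESeq2 1.42.0 were run as alternatives. Replicates differed beyond sampling noise (chi-square per degree of freedom 34.5 to 69.8).

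Tests used limma 3.58.1 (R 4.3.3) with a trended prior variance. They ran on log2 values after adding 1 to each normalized count, over the 13404 genes whose mean reached 10, with 4 group means and no covariates. Benjamini-Hochberg adjusted p-values cover all tested genes. Tests were also run on simulated counts of independent libraries, with changes put into Atf4AKO after cold alone. These counts lack the lymphocyte and muscle differences between libraries, so they do not check the tests against such differences. Python 3.11.15 served the other steps. Genes were matched by symbol or RefSeq identifier, with positions from GENCODE on mm10. The 9 genes and the lists were chosen with earlier results of these data known. Named genes were the 9, the 3 highest of each list, up to 5 per list past the threshold in each comparison, the 10 most similar to *Cdh1*, *Atf4*, and markers of other cell types. The neighbours of both genes, the unfiltered count tests of *Lalba*, its 5 similar genes, the averaged cold response and the fits without the muscle libraries were added after the data were seen. Replicate numbers were shared by the groups, and in 8 of 18 same-numbered pairs the correlation exceeded 0.1 (range -0.189 to 0.389). All pairs of replicate 1 were among these, at 0.179 to 0.389. Pairs of different numbers ran from -0.475 to 0.312. Samples were not paired in the main fit, and whether the libraries of replicate 1 shared a batch was not tested. Other settings tried were pseudocounts of 0.5 and 5, no filter, a mean of 50 as the filter, the compared groups alone, rescaling to the 75th percentile, the replicate block, a lymphocyte score covariate, an adjusted p threshold and each library left out.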

Additional observations from a re-analysis of the deposited data

How the results depend on the processing

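Of the 9 genes, *Cdh1* alone was tested in the main fit, and 0 were called with cold in either genotype. In Atf4WT, 1 was called without the filter and 1 with DESeq2. In Atf4AKO, 2 were called without the filter, and 1 each with a fit of only the groups compared, rescaling to the 75th percentile, the lymphocyte score, edgeR and DESeq2. Leaving out single libraries gave 0 to 1 in Atf4AKO (1 without Atf4WT RT replicate 1, Atf4WT RT replicate 2 or Atf4AKO cold replicate 0) and 0 elsewhere. No member remained with a filter at a mean of 50. With a pseudocount of 5 the log2 difference of *Lalba* was 0.78 in Atf4WT and 1.09 in Atf4AKO, and over single libraries left out it was 1.20 to 1.64 and 1.31 to 2.06. Its unadjusted p-values over 17 alternatives were 0.00503 to 0.133 in Atf4WT, of which 16 were under 0.05, and 0.00206 to 0.0138 in Atf4AKO. The log2 fold change of *Cdh1* with cold in Atf4WT turned to 0.36 with the lymphocyte score and 0.18 without Atf4WT RT replicate 1 (range without single libraries -0.66 to 0.18). The genotype difference of *Cdh1* at RT turned to -0.31 without Atf4WT RT replicate 2 and without the muscle libraries, and to -0.065 without Atf4AKO RT replicate 1 (range without single libraries -0.31 to 0.53).

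The number of list genes called was 10 with cold in Atf4WT, 5 in Atf4AKO, 8 between the genotypes after cold, 0 at RT and 7 for the interaction. An adjusted p under 0.05 left 4, 1, 0, 0 and 0. A filter at a mean of 50 left 6, 3, 3, 0 and 3, with fewer genes tested. The lymphocyte score gave 5 in Atf4WT, 1 between the genotypes after cold and 2 for the interaction. At RT 1 was called with only the groups compared, with the replicate block and with DESeq2. Without single libraries the counts ranged from 6 to 12, 2 to 7, 7 to 10, 0 to 1 and 4 to 7. The count of 6 was without Atf4WT RT replicate 1 or Atf4WT cold replicate 2, that of 2 without Atf4AKO RT replicate 1 and that of 4 without Atf4WT RT replicate 1. With the lymphocyte score the cold response in Atf4WT turned to -0.34 for *Pkp3*, -0.084 for *Spint2*, -0.30 for *Tgm1*, -0.18 for *Tjp3* and 0.033 for *Trp63*, and the genotype difference after cold to 0.16 for *Pkp3*. The replicate block, which fits the shared numbers, called 13 list genes with cold in Atf4WT and 6 in Atf4AKO. It called 7 between the genotypes after cold, 7 for the interaction and 0 of the 9 genes in any comparison. Of the list genes called, 7 of 10 in Atf4WT, 4 of 5 in Atf4AKO, 1 of 8 between the genotypes after cold and 3 of 7 for the interaction lost their call without at least 1 single library. In Atf4WT the calls of *Pkp3*, *Tgm1*, *Tjp3*, *Spint2* and *Trp63* were lost without RT replicate 1 or cold replicate 2, among others, and those of *Krt79* and *Muc1* without RT replicate 2, among others. *St14*, *Sfn* and *Lama3* kept theirs in Atf4WT. In Atf4AKO *Lama3* and *Trp63* lost theirs without RT replicate 0, RT replicate 1 or cold replicate 0 (*Trp63* also without cold replicate 2), *Spint1* without RT replicate 1 or cold replicate 1, and *Aldh1a3* ranged from -1.86 to -0.76. *Col17a1* lost its call after cold without 6 of the libraries (lowest size -0.59, without Atf4WT cold replicate 2). The cause of these shifts was not tested. Low reads limit *Lalba*, with a mean of 2.19 normalized counts in Atf4WT at RT.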

Other observations

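Other markers were read from the same libraries. Of 8 mesothelial markers 2 were listed, and *Msln* and *Upk3b*, which mark the lining of internal organs, were not. Of 7 dendritic cell markers 6 were listed, and *Cd207*, the langerin gene of epidermal Langerhans cells, was not. The 6 listed dendritic markers summed to 707 to 1347 normalized counts in Atf4WT after cold and to 607 to 671 in Atf4AKO after cold. The Y-linked genes *Ddx3y*, *Uty*, *Kdm5d* and *Eif2s3y* were listed in all 12 libraries, with sums of 4690 to 7927 normalized counts, and *Xist* was not listed.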
